A study of Ambystoma mexicanum with 6 samples.

Results

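Among the genes expressed in the regrowing axolotl retina, a small set differed by more than 4-fold between pools that had been collected on the same day after surgery. These uneven genes were chosen on the regenerating libraries alone. A gene belonged to the set if its mean over the 3 regenerating libraries was at least 10 CPM (a gene's estimated reads after scaling its library to 1000000 reads) and its highest regenerating pool was more than 4-fold above its lowest. The rule found 173 of the 99088 genes in the files, or 1.54% of the 11245 genes with that mean. The values that chose them are given as a description and carry no test.

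The axolotl (Ambystoma mexicanum) is a salamander that can regrow a retina after surgical removal, which is called retinectomy. All animals were adults of the leucistic genotype, a pale-skinned form, and 12 were used. Uninjured retinas came from the left eyes and were pooled by 4 into 3 samples. Retinas that had regrown for 27 days after retinectomy came from the same animals and were pooled so that each regenerating pool held the animals of the uninjured pool with the same number. Each library is thus an average over 4 animals, and a high value in a pool does not show how many of its animals carried it. In RNA from whole tissue, fewer cells of a type and less RNA per cell cannot be told apart.

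The vertebrate retina holds photoreceptors, interneurons, ganglion cells and Müller glia, and lies against a pigmented epithelium. In adult newts, which are also salamanders, cells of that pigment epithelium can lose their pigment, divide and rebuild the neural retina. Amphibians also keep dividing cells at the retinal margin, the ciliary marginal zone, that add neurons through life. Regrowing retina passes through dividing, differentiating and maturing cells.

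Genes carry AMEX60DD identifiers without symbols, and 0 of them were found in RefSeq's table for the assembly UKY_AmexF1_1. The members are therefore described by their rank, with rank 1 for the highest regenerating mean, and by identifier for a few. For the same reason the tissue label could not be set against retinal marker genes, and no function is given to any member. In units of 1000000 estimated reads, the uninjured libraries held 31.0 to 37.4 and the regenerating ones 29.4 to 34.2. At these depths 3 reads, the limit that a count of 0 allows, correspond to 0.0801 to 0.102 CPM. Uninjured pool 1 stood apart from the other uninjured pools. Over the 8994 genes whose mean reached 10 CPM in each group, it was more than 4-fold above both others for 365, or 4.06%, and as far below both for 18, or 0.2%. Uninjured pools 2 and 3 differed by as much for 12 of these genes, or 0.133%.

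The members covered a wide range of levels but were mostly of low abundance. Their regenerating means ran from 10.1 to 10547 CPM with a median of 23.5 CPM. A mean of 100 CPM or more was reached by 17 members, and 127 lay under 50 CPM. The ratio of the highest to the lowest regenerating pool had a median of 6.0, against 1.28 over all 11245 genes with the same mean. The ratio passed 8 for 46 members, 16 for 17 and 32 for 12, and 3 members had no read in a regenerating pool. In the pool where a member was lowest it still had a median of 199 reads. For 144 of the 173 members the 95% exact interval of the ratio, which covers counting error only, lay above 4, and for 29 it reached 4 or less. The intervals use the same counts that chose the members, so they describe the set and do not test it. Just inside the threshold were ratios of 4.01 (interval 3.57 to 4.53) and 4.02 (3.84 to 4.21), and just outside were 2 genes at 4.00 (3.50 to 4.58 and 3.44 to 4.67).

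The unevenness was not spread evenly over the pools. Pool 3 was the highest regenerating pool for 117 members, pool 2 for 38 and pool 1 for 18. These are 67.6%, 21.97% and 10.4% of the members, against 34.1%, 26.1% and 39.7% of the 11245 genes. Pool 1 was the lowest for 101 members, pool 2 for 52 and pool 3 for 20. Pool 1 was thus the lowest for 58.4% of the members, against 43.9% of the 11245 genes. For pool 2 the shares were 30.1% and 19.3%, and for pool 3 11.6% and 36.8%. More than a 4-fold difference separated pools 1 and 3 for 111 members, of which 97 were higher in pool 3. For pools 1 and 2 the number was 81, with 57 higher in pool 2, and for pools 2 and 3 it was 72, with 61 higher in pool 3. The order of pools 1, 2 and 3 from lowest to highest was seen for 70 members, and pool 2 below pool 1 below pool 3 for 47. The former order was held by 40.5% of the members and 26.4% of the 11245 genes, and the latter by 27.2% and 7.68%. Pool numbers are names, so these orders are not trends.

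Each member was placed in 1 of 6 patterns by the pool that stood farther from the middle one on the log2 scale. The pattern of a low pool 1 held 78 members and that of a high pool 3 held 41. A low pool 2 was found for 27, a high pool 2 for 12, a high pool 1 for 9 and a low pool 3 for 6. The pattern of a low pool 1 was held by 45.1% of the members and 29.2% of the 11245 genes, that of a high pool 3 by 23.7% and 13.7%, and that of a high pool 1 by 5.20% and 26.1%. For a low pool 2 the shares were 15.6% and 7.06%, for a high pool 2 6.94% and 9.18%, and for a low pool 3 3.47% and 14.8%.

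**Figure D1:**
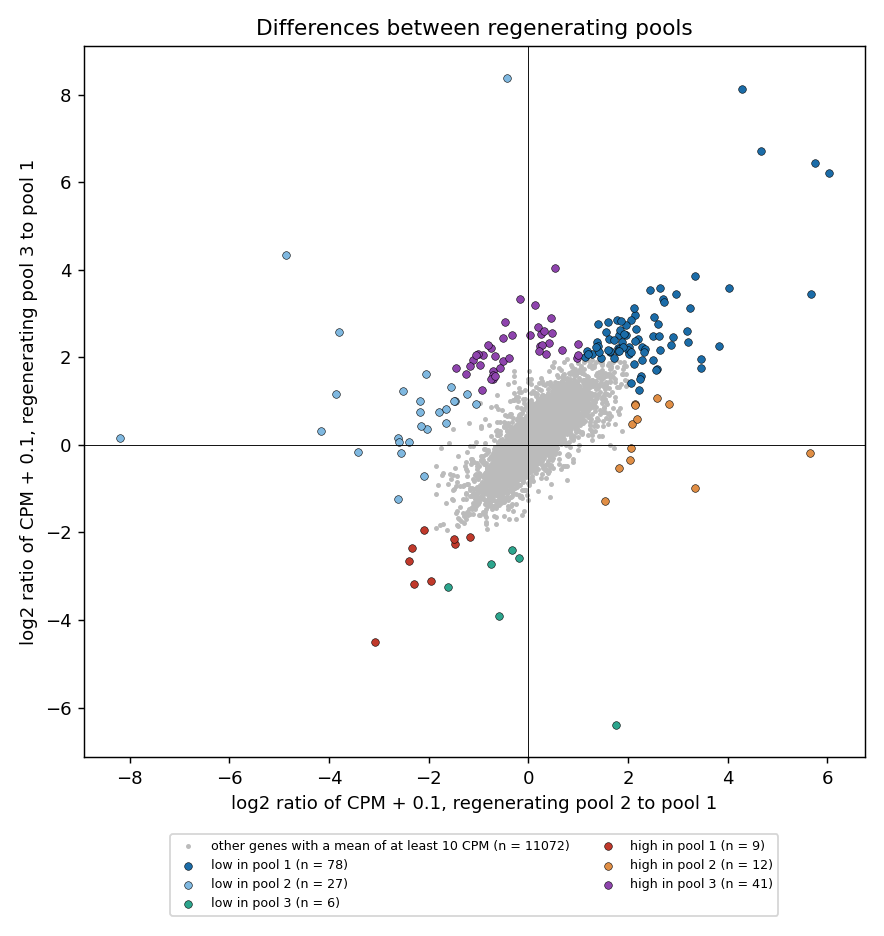
Log2 ratio of regenerating pool 2 to pool 1 (horizontal) against that of pool 3 to pool 1 (vertical), on CPM + 0.1, for genes whose regenerating mean reached 10 CPM. Grey points are the genes outside the rule; the 173 members, coloured by pattern, form a rim around them that is densest at upper right, where pool 1 is low (78 members), and above, where pool 3 is high (41 members).

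The members low in regenerating pool 1 held the most abundant gene of the set. AMEX60DD002298, of rank 1 and 2531 bases, measured 4031, 16832 and 10779 CPM in regenerating pools 1, 2 and 3. In the uninjured pools it measured 9103, 131 and 136 CPM. Pool 1 was thus the lowest of the regenerating and by far the highest of the uninjured pools, and the 2 groups overlapped. The fitted change did not pass the threshold (3.98-fold, log2 change 1.99, SE 1.63, edgeR adjusted p = 0.373). Leaving out uninjured pool 1 brought it past the threshold, at an edgeR adjusted p = 0.000665, and over 11 alternatives the value ran from 0.000665 to 0.592. This identifier was chosen for its rank.

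AMEX60DD019294, of rank 3 and 2158 bases, measured 248, 1005 and 1171 CPM in regenerating pools 1, 2 and 3. The uninjured pools held 2.66, 8.20 and 4.97 CPM. Both groups had their lowest value in pool 1, and every regenerating pool lay above every uninjured pool. The group means were 5.28 ± 2.78 CPM uninjured and 808 ± 492 CPM regenerating (SD, n = 3 each), with a fitted rise of 167-fold (log2 change 7.39, SE 0.87, edgeR adjusted p = 0.00111). Rank 5 measured 180, 638 and 1029 CPM in the regenerating libraries and 160, 136 and 129 CPM in the uninjured ones. Regenerating pool 1 lay near the uninjured level of that gene, and pools 2 and 3 were several times above it.

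Over the 78 members of this pattern the median levels in regenerating pools 1, 2 and 3 were 7.03, 41.6 and 39.2 CPM. In the uninjured pools the medians were 7.44, 6.83 and 6.96 CPM. Uninjured pool 1 was the lowest of its group for 40 of the 78 members and the highest for 28. Over the 11245 genes it was the lowest for 30.7% and the highest for 60.8%. The lowest place was thus more frequent, at 51.3%, among these members, but this was not particular to the pattern. Uninjured pool 1 was also the lowest for 32 of the 41 members high in regenerating pool 3 and 17 of the 27 low in pool 2. For the members high in pool 1, high in pool 2 and low in pool 3 the counts were 1 of 9, 2 of 12 and 0 of 6.

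Among the members with a high regenerating pool 3, rank 4 measured 437, 203 and 1670 CPM in the regenerating libraries and 21.1, 134 and 83.4 CPM in the uninjured ones. The members of rank 6 and rank 9, whose identifier numbers lay within 10 of each other, stood apart from it in uninjured pool 1. Rank 6 measured 141, 186 and 708 CPM in the regenerating and 1396, 6.57 and 42.5 CPM in the uninjured pools. Rank 9 measured 95.1, 152 and 429 CPM in the regenerating and 288, 7.56 and 52.1 CPM in the uninjured pools. In both, regenerating and uninjured levels overlapped, and uninjured pool 1 was many times above pools 2 and 3.

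Most of the 41 members high in regenerating pool 3 were low in the uninjured retina, with medians of 1.37, 5.50 and 4.04 CPM in uninjured pools 1, 2 and 3. Uninjured pool 1 was the lowest for 32 of them, or 78.0%, against 30.7% of the 11245 genes. Of the 34 with an uninjured mean under 10 CPM it was the lowest for 29, or 85.3%, against 15.8% of the 2251 genes of that level. The full uninjured order, pool 1 below pool 3 below pool 2, was shared by 25 of the 41 members, or 61.0%, against 15.9% of all genes with that regenerating mean and 8.93% of those under 10 CPM in the uninjured pools. With uninjured pool 1 left out, an alternative chosen after the data were seen, pool 3 lay below pool 2 for 29 of the 41, or 70.7%, against 43.6% of the 11245 genes and 44.6% of those under 10 CPM. Most of these members thus had 1 order in libraries that the rule did not use. It was not the order of the regenerating pools, where pool 3 was the highest. A similar tendency was seen in the members low in regenerating pool 2. Uninjured pool 1 was the lowest for 17 of those 27 and uninjured pool 2 the highest for 16, against 32 and 27 of the 41. For the 78 members low in regenerating pool 1 these counts were 40 and 32. Over the 11245 genes the shares were 30.7% and 19.4%, so the tendency was not particular to the members high in pool 3. Whether the 41 members share a cell type was not tested, since no symbol could be assigned.

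**Figure D2:**
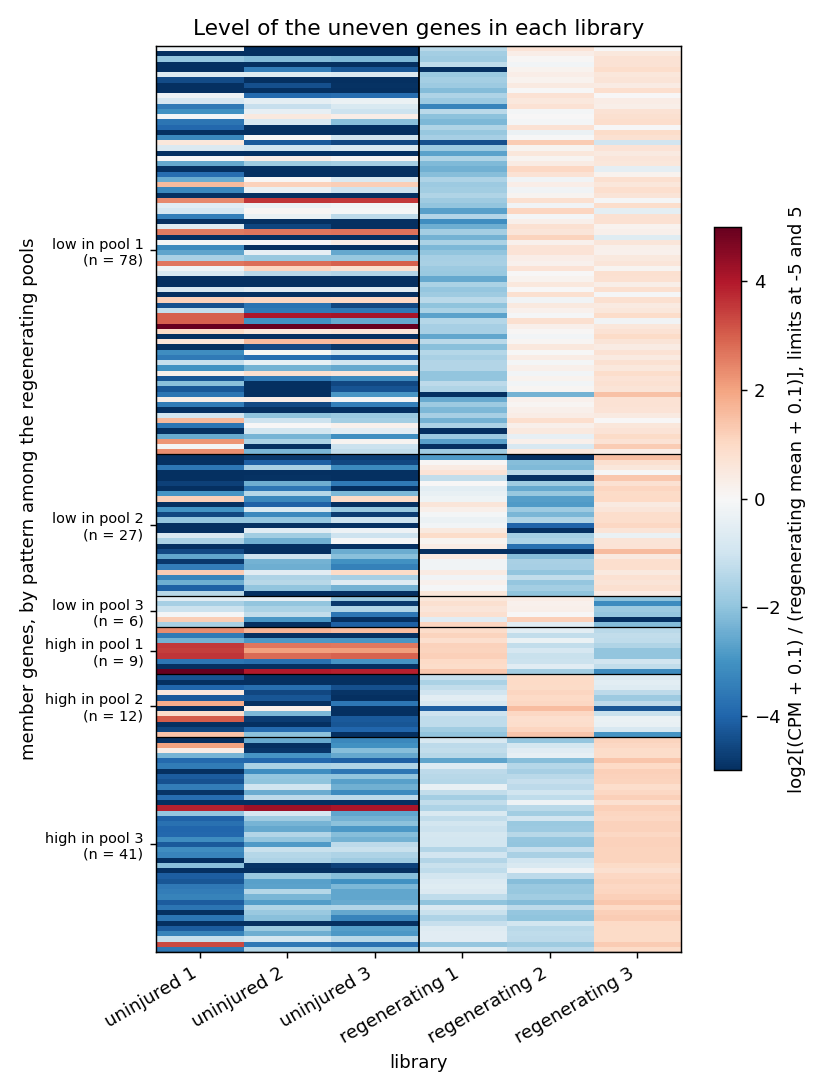
Level of each of the 173 members (rows, grouped by pattern and ordered by rank within it) in the 6 libraries (columns), as log2 of CPM + 0.1 over the regenerating mean + 0.1, with colours limited at -5 and 5. In the block of members high in pool 3 the uninjured pool 1 column is darker blue than uninjured pools 2 and 3 for most rows (lowest for 32 of 41). In the block high in pool 1 it is the highest of the uninjured columns, though not always of all 6, for 7 of 9.

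The 27 members low in regenerating pool 2 had the most extreme ratio among the abundant members. The member of rank 7 measured 41.8, 1.35 and 850 CPM in regenerating pools 1, 2 and 3, a 631-fold range (95% exact interval 469 to 874). In the uninjured pools it held 1.03, 10.5 and 11.2 CPM. Its lowest value thus fell in pool 2 in one group and in pool 1 in the other. Rank 14 measured 155, 34.1 and 263 CPM in the regenerating and 1.68, 8.76 and 6.27 CPM in the uninjured pools. Rank 29 measured 100.4, 16.2 and 112 CPM in the regenerating and 6.11, 24.5 and 8.20 CPM in the uninjured pools. For rank 29 pool 2 was the lowest regenerating and the highest uninjured pool. Over the 27 members the regenerating medians were 21.2, 4.09 and 38.4 CPM and the uninjured medians 1.12, 2.95 and 3.42 CPM. Uninjured pool 2 was the lowest of its group for 6 of the 27 and the highest for 16. Over the 11245 genes it was the lowest for 41.5% and the highest for 19.4%. Uninjured pool 1 was the lowest for 17 of the 27, against 30.7% of the 11245 genes.

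The 12 members high in regenerating pool 2 included the second gene by level. AMEX60DD007108, of rank 2 and 1227 bases, measured 673, 2845 and 935 CPM in the regenerating libraries and 75.3, 8.19 and 6.75 CPM in the uninjured ones. All regenerating pools were far above all uninjured pools. The group means were 30.1 ± 39.2 CPM uninjured and 1485 ± 1185 CPM regenerating (SD, n = 3 each), with a fitted rise of 57.4-fold (log2 change 5.84, SE 1.26, edgeR adjusted p = 0.0115). The call was lost without the filter on low counts (adjusted p = 0.0848; range over 11 alternatives 1.40e-09 to 0.0848). Rank 8 measured 80.2, 480 and 170 CPM in the regenerating and 3.23, 1.85 and 1.71 CPM in the uninjured pools. Rank 28 measured 33.8, 153 and 50.8 CPM in the regenerating and 5.0, 5.66 and 3.68 CPM in the uninjured pools. Uninjured pool 2 was the highest of its group in rank 28, by a small margin, and uninjured pool 1 was the highest in ranks 2 and 8. Over the 12 members uninjured pool 1 was the highest of its group for 8 and uninjured pool 2 for 3. Over the 11245 genes uninjured pool 1 was the highest for 60.8% and pool 2 for 19.4%, so these counts lie near the background.

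The 9 members high in regenerating pool 1 were of 2 kinds. In 5 the uninjured mean was 147 to 264 CPM, and in 4, which were called higher in the regenerating retina, it was 0.00891 to 4.80 CPM. The lowest of these means, of rank 166, rests on 0, 1 and 0 reads and lies under the limit of 3 reads. The medians over the 9 members were 197, 112 and 115 CPM in the uninjured pools and 56.0, 11.3 and 7.75 CPM in the regenerating ones. The member of rank 33 measured 362, 226 and 203 CPM in the uninjured pools, and the regenerating pools of the same numbers held 134, 48.5 and 27.8 CPM. Rank 53 was low before injury, at 3.51, 0.571 and 0.778 CPM, and measured 90.03, 17.8 and 17.5 CPM in the regenerating libraries. Rank 63 held 6.05, 4.25 and 4.10 CPM in the uninjured and 56.0, 25.0 and 13.0 CPM in the regenerating libraries. In all 3 of these, pool 1 was the highest in both groups, which was so for 7 of the 9 members, where uninjured pool 1 was the highest for 60.8% of the 11245 genes.

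The 6 members low in regenerating pool 3 were short, with a median length of 1021 bases, and 3 of them carried AMEX60DDU identifiers. The member of rank 55 measured 58.3, 50.9 and 9.58 CPM in the regenerating and 26.8, 30.1 and 10.6 CPM in the uninjured pools. Rank 56, 399 bases long, measured 65.0, 43.5 and 4.22 CPM in the regenerating and 11.9, 9.54 and 1.24 CPM in the uninjured pools. In both of these, pool 3 was well below pools 1 and 2 in either group. Rank 86 held 35.9, 28.4 and 6.72 CPM in the regenerating and 11.1, 7.77 and 8.30 CPM in the uninjured pools, where pool 3 was not the lowest. Pool 3 was the lowest uninjured pool for 4 of the 6, against 27.8% of the 11245 genes. Uninjured pool 1 was the highest for 5 of the 6, against 60.8%. With only 6 members nothing is read from these counts, and they were not tested against the background.

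Before injury the members were at lower levels than the 11245 genes as a whole, which share the minimum of 10 CPM but were not matched for regenerating level. Their median uninjured mean was 5.28 CPM, against 26.2 CPM over all 11245 genes. Of the members 28 lay under 1 CPM in the uninjured mean, or 16.2% against 2.59% of the 11245 genes. Another 83 lay from 1 to under 10 CPM, 45 from 10 to under 100 CPM and 17 at 100 CPM or above.

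The 62 members with at least 10 CPM in both groups were also uneven among the uninjured pools, which the rule did not use. The uninjured mean chose the 62, however, and 1 high pool can lift that mean past 10 CPM. Rank 169, for example, held 104, 0.775 and 0.678 CPM in uninjured pools 1, 2 and 3. The shares below are therefore a description and not independent support. More than a 4-fold range among the uninjured pools was found for 29 of the 62, or 46.8%, against 4.79% of the 8994 genes with that mean in both groups. The median range was 2.75-fold against 1.27-fold. Much of it came with uninjured pool 1, which was more than 4-fold above both others for 17 of the 62 members and as far below both for 6. Between uninjured pools 2 and 3 alone, 7 of the 62 members differed by more than 4-fold, against 12 of all 8994 genes. The median ratio of these 2 pools was 1.21 over the 62 members against 1.05. Pool 1 still counted toward the mean that chose both sets. Of the 7, ranks 93, 104, 146 and 163 lay under 10 CPM in both pools and entered through pool 1. Ranks 6, 9 and 73 reached 42.5, 52.1 and 52.5 CPM in uninjured pool 3. Over all 173 members the range passed 4-fold for 86, against 9.08% of the 11245 genes, although many of these uninjured levels were low.

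Between the groups, 69 members were called higher and 9 lower in the regenerating retina, and 95 were not called. The test was the edgeR quasi-likelihood test over 37844 genes at an adjusted p under 0.05, and all 173 members passed its filter. Of all genes tested 20.4% were called higher and 21.1% lower, and of the 11245 genes 40% were called higher and 18.2% lower. The rule used the regenerating values, so nothing is read from the comparison of these shares. The median SE of the log2 change was 0.87 for the members and 0.20 for the 11245 genes. The median log2 change was 2.32 for the members and 0.40 for the 11245 genes. Every regenerating pool lay above every uninjured pool for 79 members, below it for 13, and the groups overlapped for 81. Over the 11245 genes the first was seen for 40.9% and the second for 29.9%. Of the 79, 12 were not called. The members called higher had a median fitted rise of 29.5-fold and those called lower a median fall of 8.63-fold. When pools of the same animals were paired (replicate block), 57 members were called higher, of which 45 were among the 69, and 12 were called lower.

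**Figure D3:**
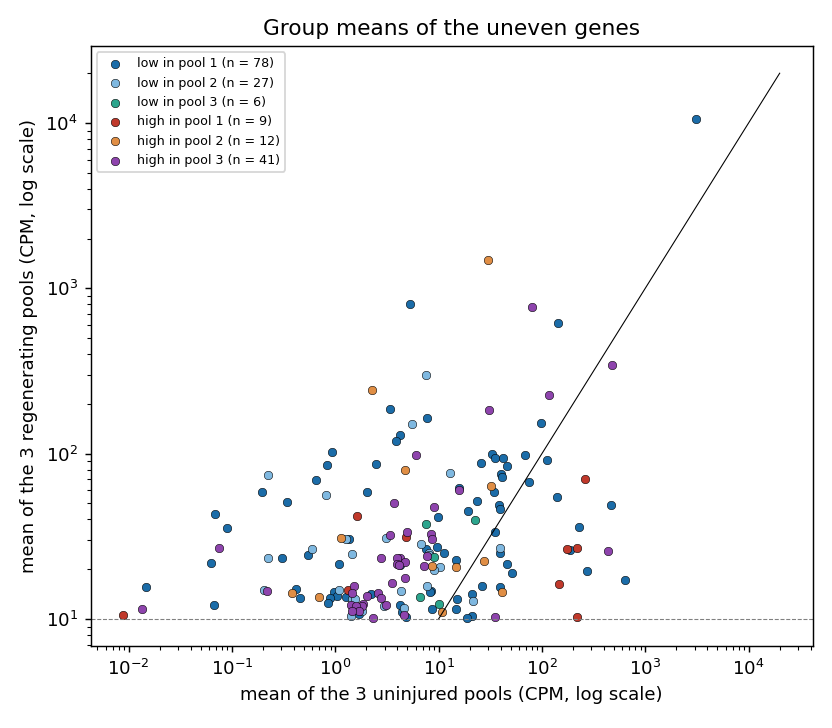
Mean of the 3 uninjured pools (horizontal) against the mean of the 3 regenerating pools (vertical) for each member, in CPM on log scales, coloured by pattern. The solid line marks equal means and the dashed line the minimum of 10 CPM set by the rule; most members lie left of the solid line, and those high in pool 1 lie mostly to its right, with uninjured means above 100 CPM for 5 of 9.

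The 13 members whose regenerating pools all lay below the uninjured pools fell into opposite patterns. In 5 of them regenerating pool 1 was the highest, and in these uninjured pool 1 was the highest as well. They are the members of ranks 33, 72, 75, 111 and 170. Their uninjured levels were 197 to 362 CPM in pool 1 and 112 to 226 CPM in pools 2 and 3. Rank 170 went from 334, 163 and 153 CPM to 26.7, 3.09 and 1.08 CPM, so that the residual level in regenerating pool 1 was 24.7-fold above that in pool 3 (95% exact interval 17.8 to 35.4).

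Another 7 of the 13 had the pattern of a low regenerating pool 1. AMEX60DD017440, of rank 109 and 10962 bases, measured 570, 681 and 640 CPM in the uninjured and 5.38, 20.3 and 25.6 CPM in the regenerating libraries. The groups were far apart, and pool 1 was the lowest in each. The group means were 630 ± 55.9 CPM uninjured and 17.1 ± 10.5 CPM regenerating (SD, n = 3 each), with a fitted fall of 33.1-fold (log2 change -5.05, SE 0.62, edgeR adjusted p = 0.00126). AMEX60DD013400, of rank 47 and 3870 bases, measured 257, 575 and 562 CPM in the uninjured and 14.2, 85.1 and 47.3 CPM in the regenerating libraries. Pool 1 was again the lowest in both groups. The group means were 465 ± 180 CPM uninjured and 48.9 ± 35.5 CPM regenerating (SD, n = 3 each), with a fitted fall of 8.63-fold (log2 change -3.11, SE 0.71, edgeR adjusted p = 0.0142). That call was lost without the filter on low counts (adjusted p = 0.0793; range over 11 alternatives 1.30e-05 to 0.0793). The remaining member, of rank 78, had the pattern of a high pool 3, with 8.88, 10.2 and 58.2 CPM in regenerating pools 1, 2 and 3, after uninjured levels of 372, 488 and 443 CPM.

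Because a pool number stands for the same 4 animals in both groups, the members were also compared across the groups by pool number. Among the 62 members with at least 10 CPM in both groups, the same number was highest in both groups for 17, or 27.4%, against 40.8% of the 8994 genes. The same number was lowest for 34, or 54.8%, against 37.9%, and for 24 of these 34 it was pool 1. The rule used the regenerating pools, where pool 1 was the lowest for 58.4% of all members. Uninjured pool 1 was the lowest for 28 of the 62. The share of 54.8% is therefore not read as a match of animals. Pool 3 differed from pool 2 in the same direction in both groups for 32 of the 62, or 51.6%, against 51.3%. The direction of that difference was therefore near the background. The log2 ratio of pool 3 to pool 2 (on CPM + 0.1) correlated between the groups at r = 0.49 across the 62 members, against 0.25 over the 8994 genes. The log2 deviation from the group mean (on CPM + 0.1) correlated across the 62 members at r = 0.65 between uninjured and regenerating pool 3, at -0.17 for pool 2 and at -0.02 for pool 1. Over the 8994 genes the values were 0.00, -0.05 and -0.12. The highest correlation between pools of different number, at 0.46, was that of uninjured pool 1 with regenerating pool 2. The lowest, at -0.61, was that of uninjured pool 3 with regenerating pool 2. The deviations of a group sum to 0 and members share libraries, so these values describe the set and are not tests. Members without a read in a library are among the 62, and for them the 0.1 CPM added sets the size of the deviation. Rank 146 held 0 CPM in pool 3 of both groups, and rank 103 held 0 CPM in uninjured pool 1 and regenerating pool 2. Rank 163 held 0 CPM in uninjured pool 3 and 1.34 CPM in regenerating pool 3. How far the correlations rest on such members was not tested.

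A few members showed a sharp difference that recurred in pools of the same number. Members were counted for which 1 pool in each group was more than 5-fold below both others, or above both. The others of a low pool, or the high pool itself, had to be above 1 CPM. This gave 12 members, and in 7 of them the pool had the same number in both groups. AMEX60DD031105, of rank 101 and 854 bases, measured 0.471, 25.0 and 0.260 CPM in the uninjured and 1.12, 60.9 and 0.981 CPM in the regenerating libraries. It was high in pool 2 alone, before and after regrowth. AMEX60DD035033, of rank 162, measured 0.168, 5.74 and 7.33 CPM in the uninjured and 0.136, 15.3 and 17.6 CPM in the regenerating libraries. Its reads in pool 1 were 6 in the uninjured and 4 in the regenerating library.

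AMEX60DDU001024373, of rank 146 and 851 bases, had no read in pool 3 of either group. It measured 28.8, 1.53 and 0 CPM in the uninjured and 8.30, 28.5 and 0 CPM in the regenerating libraries, so that regenerating pool 2 was at least 325-fold above pool 3 against a limit of 3 reads in that library (lower limit of the 95% exact interval 264). The pools that did hold reads changed places between the groups. Rank 73 was low in pool 2 in both groups, at 62.0, 2.80 and 52.5 CPM in the uninjured and 22.9, 3.89 and 53.6 CPM in the regenerating libraries. The other three that matched by number were those of ranks 12 and 21, low in pool 1, and rank 56, low in pool 3.

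The other 5 of the 12 did not match by number. AMEX60DDU001026620, of rank 103 and 841 bases, had no read in uninjured pool 1 and none in regenerating pool 2. It measured 0, 13.7 and 17.1 CPM in the uninjured and 29.2, 0 and 32.4 CPM in the regenerating libraries, with 512 to 1110 reads in each of the other 4 libraries. Regenerating pool 3 was at least 346-fold above pool 2 against the limit of 3 reads (lower limit of the 95% exact interval 281). By the labels the pools of 1 number hold the same animals, so this gene would have been read in pool 1 after injury and not before, and in pool 2 before and not after. Its values do not match by pool number, and whether the numbers hold for this gene was not tested. The third member with no read in a regenerating pool, of rank 120 and 531 bases, held 0.0340, 0 and 44.6 CPM in the regenerating libraries, or 1, 0 and 1526 reads. By the rule for patterns it counts as low in pool 2, although pools 1 and 2 differ by 1 read. In the uninjured pools it held 0.563, 0.0534 and 2.61 CPM. Identifiers in these 3 paragraphs were singled out after their values were seen.

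**Figure D4:**
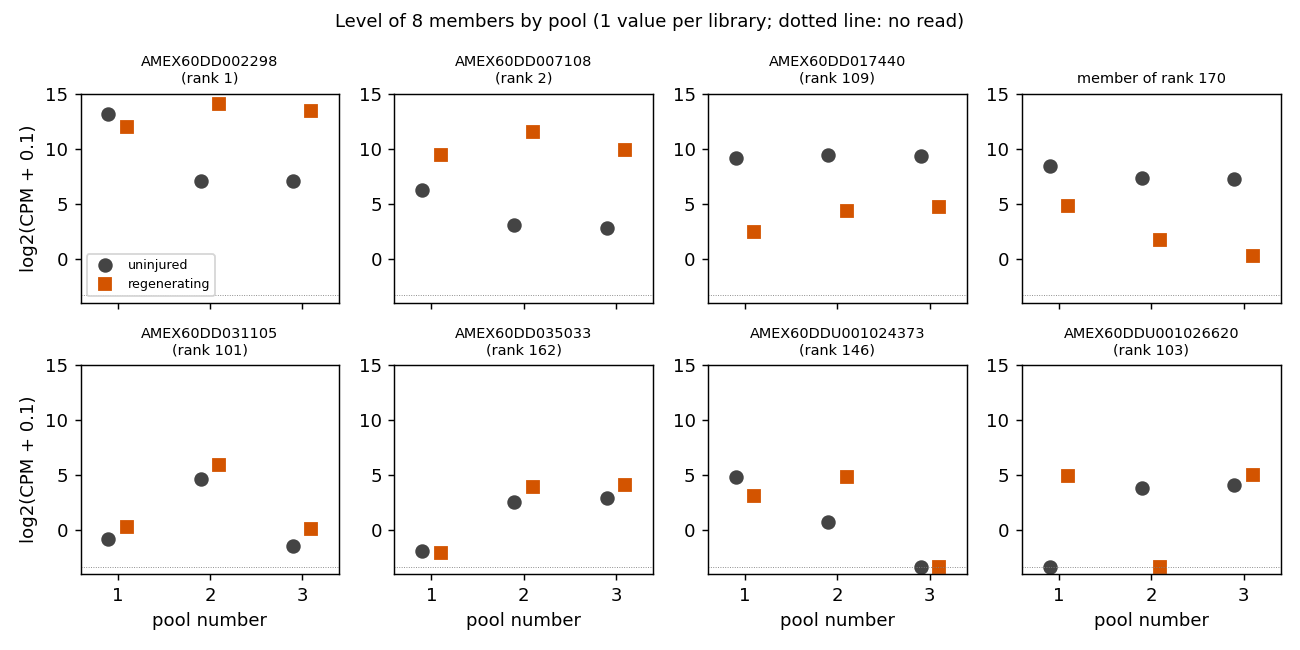
Level of 8 members as log2(CPM + 0.1) by pool number, with 1 point per library (circles uninjured, squares regenerating) and a dotted line at no read. AMEX60DD031105 is high in pool 2 and AMEX60DD035033 low in pool 1 in both groups, whereas AMEX60DDU001026620 has no read in uninjured pool 1 and in regenerating pool 2.

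Over all genes, sharp differences of this kind matched by number more often for a low than for a high pool. A pool more than 5-fold below both others in each group, with those others above 1 CPM, was found for 45 genes, and in 37 of them the number was the same. It was pool 1 for 12, pool 2 for 15 and pool 3 for 10. A pool more than 5-fold above both others, and above 1 CPM, in each group was found for 36 genes, of which 19 matched by number. Of the 17 that did not, 11 were high in uninjured pool 1 and regenerating pool 3.

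The same pool was highest, and the same lowest, in both groups for 11 of the 86 members with more than a 4-fold range in each, or 12.8%. Over the 1021 of the 11245 genes with more than a 4-fold range among the uninjured pools the share was 12.7%. The highest and lowest pools changed places for 12 of the 86, or 14.0%, against 24.0% of those genes, and in 10 of the 12 uninjured pool 1 was the highest. AMEX60DD002298 was one of these 12. Another, of rank 18, measured 84.2, 6.68 and 6.91 CPM in the uninjured and 33.8, 163 and 101 CPM in the regenerating libraries. A match in both ends was therefore no more frequent than an exchange. Of the 11 that matched, the 6 of highest rank were ranks 56, 70, 101, 102, 112 and 115. Rank 70 measured 4.26, 20.4 and 4.49 CPM in the uninjured and 6.84, 43.2 and 31.3 CPM in the regenerating libraries. Rank 102 measured 2.35, 9.51 and 9.66 CPM in the uninjured and 7.52, 9.41 and 45.9 CPM in the regenerating libraries. Rank 112 measured 5.29, 2.95 and 14.7 CPM in the uninjured and 17.3, 5.42 and 24.7 CPM in the regenerating libraries. In these 3 the end pools recurred, while the middle pool stood differently. Rank 115 was near 0 before injury, at 0, 0 and 0.0446 CPM, and measured 2.51, 14.1 and 30.4 CPM in the regenerating libraries, so its uninjured order rests on very few reads.

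Some members with close identifier numbers shared a pattern. Of the 163 members with numbered AMEX60DD identifiers, 44 fell into 18 groups in which neighbours lay within 10 numbers of each other, and 21 were numbered next to another member. In 10 of the 18 groups all members had the same pattern. The same counts were not made over the 11245 genes, so nothing is read from them. The group with 4 members, of ranks 81, 82, 121 and 154, was low in regenerating pool 2 throughout. Its members measured 13.6 to 29.7 CPM in pool 1, 3.00 to 7.13 CPM in pool 2 and 18.6 to 45.9 CPM in pool 3. The group with 3 consecutive numbers, of ranks 32, 48 and 92, was low in pool 1, at 5.85 to 20.4 CPM against 23.0 to 80.1 CPM in pool 2 and 39.5 to 117 CPM in pool 3.

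The group with the most members held 5, of ranks 4, 12, 20, 42 and 87, within 22 numbers. All 5 were highest in regenerating pool 3, at 48.0 to 1670 CPM, as were 67.6% of all members. They differed in the other pools. Ranks 42 and 87 measured 23.9 and 21.2 CPM in pool 1 and 1.63 and 1.38 CPM in pool 2. Rank 12 instead measured 3.37 CPM in pool 1 and 187 CPM in pool 2. Chromosomal positions were not used here. Salmon splits the reads of near-identical copies among them, so the values of such neighbours would be uncertain. Whether any of these members are such copies was not tested.

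Short genes made up a larger share of the members than of the 11245 genes. The median length of the members was 3072 bases against 3845, and 26 of them, or 15.03%, were shorter than 1000 bases against 3.94%. AMEX60DDU identifiers were carried by 10 members, or 5.78%, against 4.06%. The abundance-weighted transcript length that Salmon reports changed by more than 1.1-fold among the regenerating pools for 23 members, or 13.3%, against 11.7%. Among the uninjured pools it did so for 29 members, or 16.8%, against 10.4%. The widest change among the regenerating pools was in AMEX60DD035033, at 1262, 3293 and 3736 bases in regenerating pools 1, 2 and 3, where the first value rests on 4 reads. The next was in the member of rank 73. Its weighted length was 7602, 4443 and 8815 bases in the regenerating and 8930, 1940 and 8506 bases in the uninjured pools. Pool 2, where its level was low, thus had the shorter length in both groups.

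Together the members took a variable share of the reads. The share was 0.897%, 2.82% and 2.66% in regenerating pools 1, 2 and 3 and 1.66%, 0.562% and 0.535% in the uninjured pools. The groups overlapped, at 2.13% ± 1.07 and 0.918% ± 0.640 (SD, n = 3 each). The rule used the regenerating levels, so no test of this difference is given. Without AMEX60DD002298 the shares were 0.494%, 1.14% and 1.58% in the regenerating and 0.747%, 0.549% and 0.521% in the uninjured pools. Regenerating pool 1 was then the lowest of all 6 libraries.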

How the data were processed

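RNA of 6 pools of axolotl retinas was sequenced, 3 uninjured and 3 regenerating. Per the submitters' processing notes, the authors trimmed reads with Trimmomatic 0.38 and quantified transcripts with Salmon 0.13.1. Per the file headers, each deposited sample file lists per gene the estimated count, the TPM (scaled by the authors for length and library) and an abundance-weighted length in bases. The sources used here give no genome build, annotation or strand setting. The 6 columns of the deposited table of the whole series were not used, since they differ gene by gene from the estimated counts of the sample files.

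CPM is the estimated count divided by the library total. Members follow from CPM alone. Groups were compared on rounded estimated counts with edgeR 4.0.16 in R 4.3.3 (filterByExpr at a minimum count of 10, TMM, robust quasi-likelihood F-test, Benjamini-Hochberg over 37844 genes). An SE is the log2 change over the square root of F. The scripts were tested on simulated data. Per the labels, a pool number stands for the same animals in both groups; the deviations of same-numbered pools correlated over all tested genes at 0.00, 0.07 and 0.08. Alternatives were other scalings, thresholds and filters, DESeq2 1.42.0, the replicate block and leaving out libraries. Ratio intervals are 95% exact (Clopper-Pearson) intervals of counting error only.

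Described with values are the 3 highest-ranked members of each pattern, members without a read in a regenerating pool, those just inside and outside the ratio of 4, and the 6 highest-ranked with more than a 4-fold range and the same highest and lowest pool in both groups. Identifiers are printed for at most 2 members called higher, 2 called lower and single ones singled out after their values were seen. The counts of sharply differing genes and of uninjured orders were chosen after the data were seen. The members and lists were chosen with earlier results of these data known. Marker lists could not be used without symbols.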

Additional observations from a re-analysis of the deposited data

How the results depend on the processing

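The set itself depends on its limits. Instead of 173 genes it held 333 with TPM in place of CPM, 303 at a mean of 5, 104 at 20 and 1077 at 1 CPM, and 332, 86 and 46 at ratios above 3, 6 and 8. It held 181 with TMM-scaled CPM, 191 with DESeq2 size factors and 155 on CPM + 1. Without 1 regenerating pool it held 74 to 123 genes, 74 without pool 3 and 81 without pool 1. With the 173 members held fixed and only their pattern assigned anew, the 6 pattern counts stayed within 1.5 times under 3 other scalings; patterns of the sets found under those scalings were not computed. Members with over a 4-fold range among the uninjured pools numbered 7 to 28 with 1 uninjured pool left out. They numbered 7 without pool 1, which still counted toward the mean that chose the 62. With pools 2 and 3 alone, where a match by number has 2 outcomes instead of 3, 32 instead of 17 of the 62 members had the same number highest. Members called higher and lower (69 and 9) came to 39 and 2 with 0.01 as the limit of the adjusted p and 36 and 2 without the filter on low counts. DESeq2, which tested 163 of the 173 members, called 96 higher, of which 68 were among the 69, and 11 lower. Leaving out 1 library gave 45 to 79 higher (45 without uninjured pool 3) and 5 to 12 lower (5 without regenerating pool 2). The replicate block gave 57 and 12, and changed no call of the 5 members tested by identifier. The cause was not tested. No member was called in opposite directions in any of the 12 alternatives. The difference in read share, 1.21 percentage points, kept its direction at 0.466 to 1.82. At 3 reads per library, levels under 0.0801 to 0.102 CPM cannot be measured.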
